A study of Mus musculus with 12 samples.

Results

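The immune checkpoint receptors and ligands described here are the 10 genes Pdcd1, Cd274, Pdcd1lg2, Ctla4, Lag3, Havcr2, Tigit, Cd28, Cd80 and Cd86, taken by their symbols from the 23282 rows of a table of read counts. All 10 symbols were present, each in 1 row. The table covers 12 tumors of MC38, a mouse colon carcinoma cell line, implanted subcutaneously in the right flank of wild-type female C57BL/6 mice, 6 weeks old by the labels. The 4 groups hold 3 tumors each: Con (saline with DMSO and Tween, and an IgG2a control antibody), SFIH (a sesquiterpene lactone-rich fraction of the root of Inula helenium, 50 mg/kg a day), PD (an anti-PD-1 antibody, 200 μg per injection, 2 times a week) and Comb (SFIH and the antibody together), all given into the peritoneum. By the study, the SFIH mice also received the IgG2a antibody, and SFIH was dissolved in the same vehicle. Tumors were taken on day 19. All tumors descend from 1 cell line, and the comparisons ask whether the antibody, the plant fraction or both altered the transcripts of the receptors and ligands that the antibody therapy acts on.

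T cells need a costimulatory signal through CD28, which binds CD80 and CD86 on antigen presenting cells. CTLA-4 binds the same ligands more tightly and restrains the response. PD-1, the product of Pdcd1, is induced on activated T cells and inhibits them when bound by PD-L1 (Cd274), which tumor cells, macrophages and many other cells can make, or by PD-L2 (Pdcd1lg2), which is made mainly by dendritic cells and macrophages. LAG-3, TIM-3 (Havcr2) and TIGIT are further inhibitory receptors that accumulate on chronically stimulated T cells, and TIM-3 is also made by macrophages and dendritic cells. Interferon gamma from T cells is a known inducer of PD-L1 through the transcription factor IRF1.

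In the mouse genome several of these genes are neighbors, in the order of RefSeq genes on GRCm38.p6: Cd28 lies next to Ctla4 and Ctla4 next to Icos on chromosome 1, Cd274 lies next to Pdcd1lg2 on chromosome 19, and Lag3 lies next to Cd4 on chromosome 6. The build behind the counts is not given in the sources used here, so no position of the counted genes is stated. Upstream sequence from RefSeq (GRCm38.p6) was matched for 7 of the 10 genes, and the 250 bases before the start of each were searched on both strands for the letters GAAANNGAA (interferon regulatory factors), TTCNNNGAA (STAT factors), TGANTCA (AP-1) and TGGAAAA (NFAT). The 3 stretches below hold a match in Cd274 and Ctla4, whose PD tumors lay above all Con tumors, and in Cd80, whose Comb tumors lay above all others. Lag3, Cd28 and Cd86 had no entry. Capitals mark the match, all are written 5′ to 3′ on the plus strand, which is the strand of these 3 genes, and the match begins 76, 166 and 42 bases before the start of Cd274, Ctla4 and Cd80. The Cd274 and Ctla4 matches read GAAANNGAA on the minus strand.
Cd274, chr19:29367342-29367390: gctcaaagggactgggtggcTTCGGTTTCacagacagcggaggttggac
Ctla4, chr1:60908839-60908887: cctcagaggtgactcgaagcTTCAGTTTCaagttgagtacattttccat
Cd80, chr16:38458871-38458917: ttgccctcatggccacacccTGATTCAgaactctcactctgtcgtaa

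Of 32851 mouse promoters of the same length, 7.13% held the interferon regulatory factor letters, 7.02% the STAT letters, 6.75% the AP-1 letters and 5.93% the NFAT letters. Ctla4 also held the NFAT letters, 145 bases before its start, and Havcr2 the AP-1 letters, 200 bases before its start. Pdcd1, Pdcd1lg2 and Tigit held none of the 4 in this window. A match describes the letters and no binding was measured.

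Each library had between 7870741 and 12261032 counted reads, and levels are given as CPM, the count of a gene scaled to this total in the usual way. The RNA came from whole tumor tissue, although the labels name tumor cells, and all 12 libraries held T cell and macrophage transcripts. Of 7 epithelial markers, Cldn7 had no count in 8 tumors and Epcam in 3. Their sum was 2.46 to 21.3 CPM in 11 tumors and 99.3 CPM in Comb replicate 3. Comb replicate 3 stood apart before any result is given: 11 macrophage markers summed to 11462 CPM there against 602 to 3683 in the other 11 tumors, 11 T cell markers to 483 CPM against 44.7 to 191, and 10 skeletal muscle markers to 5594 CPM against 4.70 to 715. The 715 CPM of muscle markers belonged to Comb replicate 1, so that 2 of the 3 Comb tumors held more muscle RNA than any other tumor. In bulk RNA, more cells of a type and more transcript per cell cannot be told apart. For many results that involve Comb, the value without replicate 3 is also given.

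**Figure D1:**
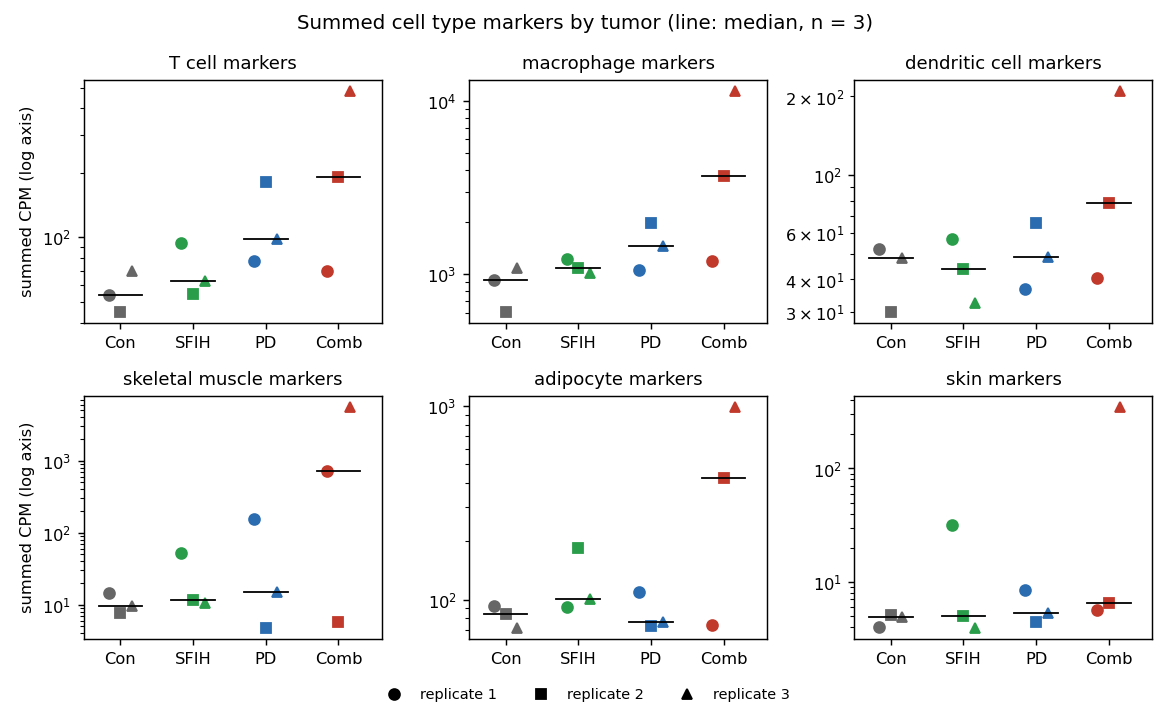
Summed CPM of 6 lists of cell type markers (vertical log axes) in each of the 12 tumors, by group, with a symbol for each replicate and a line at the median of 3 tumors. Comb replicate 3, the red triangle, is the highest tumor in all 6 panels.

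Pdcd1, the receptor that the antibody binds, had a mean of 1.38 ± 0.63 CPM for Con, 1.36 ± 0.71 for SFIH, 3.94 ± 2.97 for PD and 2.37 ± 1.29 for Comb (SD, n = 3). The counts of the tumors were 12, 9 and 21 for Con, 26, 15 and 7 for SFIH, 22, 58 and 20 for PD and 9, 29 and 36 for Comb, for replicates 1 to 3. PD replicate 2 was the highest tumor at 7.37 CPM, and no neighbors in the order of the group means were separate from each other in CPM. PD and Con overlapped by 2.092 against 2.095 CPM, and after scaling by TMM, the scaling used for the tests, all PD tumors (at least 1.999) lay above all Con tumors (at most 1.874). Pdcd1 had a log2 fold change of 1.66 (standard error 0.73) from Con to PD and 0.76 without PD replicate 2. From Con to Comb it was 1.14 (standard error 0.72), and from PD to Comb −0.52 (standard error 0.70). These were 0.70 and −0.95 without Comb replicate 3.

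Cd274, which encodes PD-L1, was the member with the most even control tumors and a level in PD above all of them. Its CPM was 45.3, 43.6 and 46.9 for the Con tumors, 68.3, 32.8 and 52.3 for SFIH, 80.8, 135 and 90.3 for PD, and 56.4, 104 and 26.8 for Comb. All 3 PD tumors lay above all Con and all SFIH tumors. The Comb tumors straddled the others, with replicate 2 in the range of PD and replicate 3 the lowest of all 12 tumors. Between Con and PD the log2 fold change was 1.29 (standard error 0.42, 95% interval 0.37 to 2.21), which remained between 0.97 and 1.44 with each tumor left out in turn. From PD to Comb it was −0.58 (standard error 0.41, 95% interval −1.49 to 0.33), and the value ranged from −1.21 without Comb replicate 2 to −0.27 without Comb replicate 3.

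Pdcd1lg2, which encodes PD-L2 and lies beside Cd274, had the size of its difference in Comb set largely by 1 tumor. Its counts were 0, 6 and 12 for Con, 28, 6 and 3 for SFIH, 12, 40 and 29 for PD and 30, 42 and 820 for Comb. Comb replicate 3 thus held 79.8% of all its counts, in the same library in which Cd274 was lowest. All PD tumors lay above all Con tumors, and all Comb tumors above all Con and all SFIH tumors. The closest values were 1.20 CPM in Con replicate 3 and 1.29 CPM in PD replicate 1. Its log2 fold change in Comb against Con was 5.96 (standard error 1.55) with all tumors and 2.77 without Comb replicate 3, and from PD to Comb it was 3.47 and 0.28 in the same order.

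**Figure D2:**
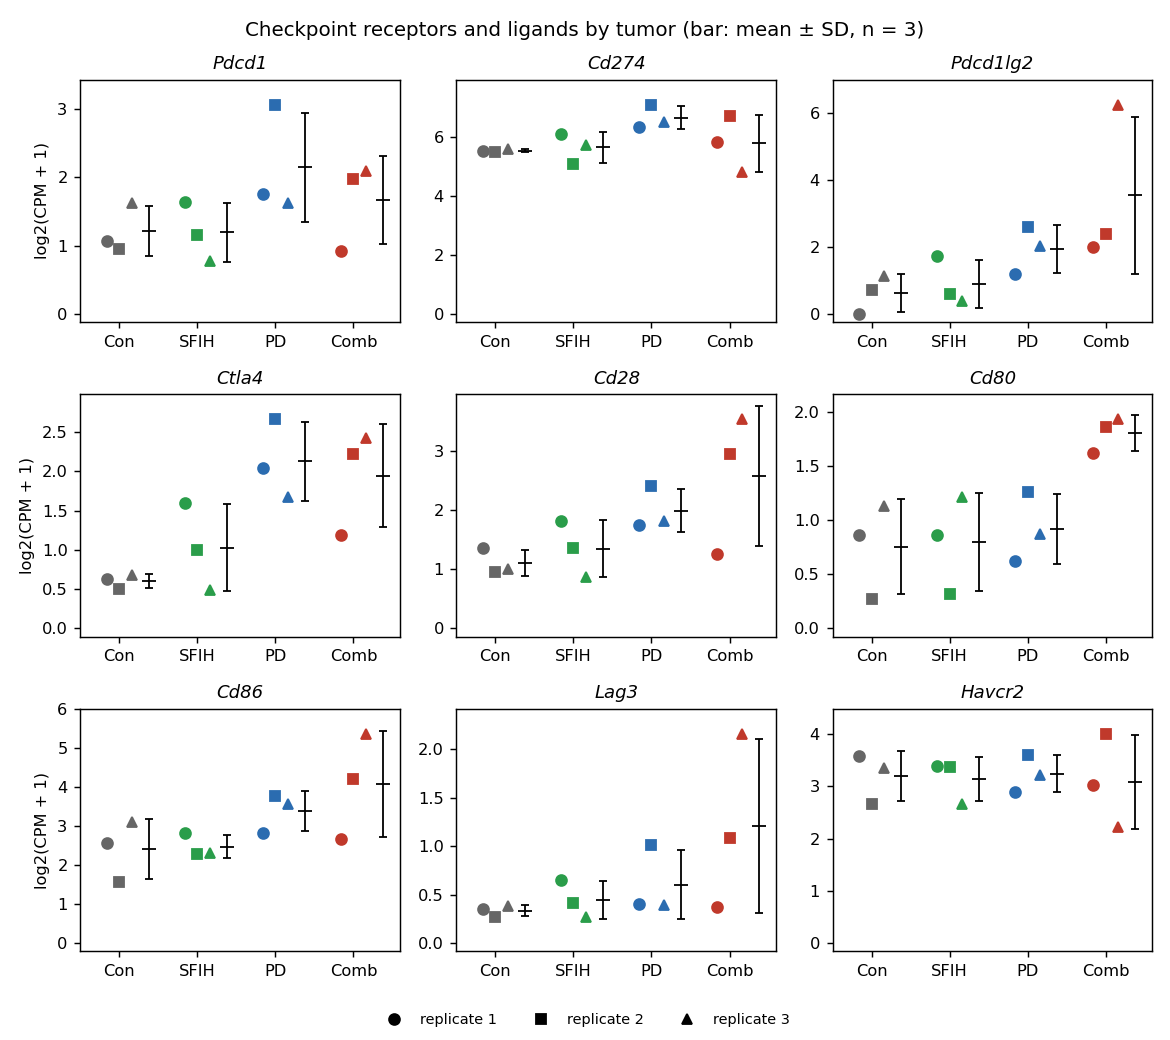
log2(CPM + 1) of 9 of the 10 genes (vertical axes from about 0, a separate scale in each panel) in each tumor, by group, with symbols for replicates and, to the right of each group, the mean ± SD of 3 tumors. The PD tumors lie above all Con tumors for Cd274, Pdcd1lg2, Ctla4, Lag3 and Cd28, and the Comb tumors lie above all others for Cd80.

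Ctla4, the inhibitory counterpart of Cd28, had few counts in Con and more wherever the antibody had been given. There were counts of 6, 4 and 6 for Con, 25, 12 and 4 for SFIH, 29, 42 and 21 for PD and 13, 36 and 48 for Comb. This is a mean of 0.521 ± 0.094 CPM (SD, n = 3) in Con against 3.55 ± 1.61 in PD and 3.11 ± 1.61 in Comb. All 6 antibody-treated tumors lay above all Con tumors, while SFIH replicates 1 and 2 lay between Con and PD. SFIH replicate 1 was above Comb replicate 1, at 2.04 against 1.29 CPM. Ctla4 had a log2 fold change of 2.86 (standard error 0.73, 95% interval 1.29 to 4.49) from Con to PD and 2.89 (standard error 0.73, 95% interval 1.32 to 4.53) from Con to Comb, the latter 2.43 without Comb replicate 3. Between PD and Comb it was 0.04, with a 95% interval of −1.38 to 1.45, and differences inside that interval were not detectable with these tumors. It was −0.43 without Comb replicate 3.

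Cd28, the costimulatory receptor, had counts of 17, 9 and 10 for Con, 31, 19 and 8 for SFIH, 22, 34 and 24 for PD and 14, 66 and 116 for Comb. The PD tumors lay above the Con tumors, at 2.37 to 4.32 against 0.936 to 1.55 CPM. Comb replicate 1 lay within the range of Con, and Comb replicates 2 and 3 were the 2 highest of the 12 tumors at 6.71 and 10.6 CPM. Comb against Con gave a log2 fold change of 2.78 (standard error 0.75), and 2.01 without Comb replicate 3. From PD to Comb it was 1.29 (standard error 0.70) with all tumors, 0.52 without Comb replicate 3 and 1.80 without Comb replicate 1.

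Cd80, a ligand of both CD28 and CTLA-4, was the member whose Comb tumors lay above all PD tumors in CPM. Its counts were 9, 2 and 12 for Con, 10, 3 and 13 for SFIH, 5, 11 and 8 for PD and 21, 26 and 31 for Comb. The 3 Comb tumors had 2.08, 2.64 and 2.82 CPM, above the highest value of 1.40 CPM in the other 9 tumors, and of the 9 members compared it was the sole one for which neighboring groups in the order of the means were separate. The log2 fold change from PD to Comb was 1.63 (standard error 0.74, 95% interval 0.02 to 3.26), and 1.42 without Comb replicate 3. From Con to PD it was 0.42 (standard error 0.76), with 2 of 3 PD tumors inside the range of Con.

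Cd86, the other ligand of CD28 and CTLA-4, had counts of 54, 19 and 76 for Con, 74, 47 and 39 for SFIH, 56, 100 and 103 for PD and 54, 173 and 441 for Comb. In CPM, Comb ran from 5.35 to 40.2, and its lowest tumor was below the lowest PD tumor at 6.02. In Comb against Con its log2 fold change was 2.53 (standard error 0.72) and 1.48 without Comb replicate 3. From PD to Comb it was 1.39 and 0.33 in the same order.

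Lag3, an inhibitory receptor that binds MHC class II, was near the floor of the method, taken here as 3 counts. Counts per tumor were 3, 2 and 3 for Con, 7, 4 and 2 for SFIH, 3, 8 and 3 for PD and 3, 11 and 38 for Comb. The PD tumors were above the Con tumors by a margin of 0.314 against 0.299 CPM, which rests on libraries with 3 counts each and differs through their totals. Lag3 passed the filter on low counts used for testing only through PD replicate 2 and Comb replicates 2 and 3, all treated with the antibody, so its place among the tested genes depended on the tumors in which it was high. Comb replicate 3 held 43.7% of all Lag3 counts, and the log2 fold change in Comb against Con was 2.99 (standard error 0.98) and 1.60 without it. Havcr2, which encodes TIM-3, had group means of 8.51 ± 2.90 CPM for Con, 8.06 ± 2.37 for SFIH, 8.63 ± 2.39 for PD and 8.60 ± 5.84 for Comb (SD, n = 3). Its log2 fold changes from Con were −0.10, 0.13 and 0.27 for SFIH, PD and Comb, each less than the standard error of 0.47. The value for Comb was 0.58 without Comb replicate 3. The 95% interval from Con to PD was −0.91 to 1.17. Comb held both the highest tumor, replicate 2 at 15.04 CPM, and the lowest, replicate 3 at 3.64 CPM. Tigit had 1 count in all, in Comb replicate 1, and 0 in the other 11 tumors, which allows up to 0.245 to 0.381 CPM in each of them (3 counts, for counting error only). No comparison was made for it.

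For the other 9 members, which passed a filter on low counts, groups were compared with the quasi-likelihood test of edgeR in a single fit of all 12 tumors. P-values were adjusted over the 13464 genes tested, with a threshold of 0.05. No member passed in any comparison, and no gene of the 13464 did (0.0% in all 7). The members with an unadjusted p under 0.05 were 3 of 9 in PD against Con (Pdcd1, Cd274 and Ctla4; 3.99% of all genes), 6 of 9 in Comb against Con (all but Pdcd1, Cd274 and Havcr2; 25.3%), 2 of 9 in Comb against PD (Pdcd1lg2 and Cd80; 18%), 6 of 9 in Comb against SFIH (19.0%), and 0 of 9 in SFIH against Con (2.25%). The filter needed 3 tumors with at least 1.01 CPM. Of the 6 tumors without the antibody (Con and SFIH) only 1 reached this for Ctla4, 2 for Pdcd1lg2, 2 for Cd80 and 0 for Lag3, so these 4 genes were tested because of antibody-treated tumors in which they were high, and counts that include them are no support for a direction. Of the other 5 members, which passed in tumors without the antibody alone, 2 had an unadjusted p under 0.05 in PD against Con (Pdcd1 and Cd274), 2 in Comb against Con and 2 in Comb against SFIH (Cd28 and Cd86 in both), and 0 in Comb against PD. The lowest adjusted p of a member from edgeR was 0.9998 in PD against Con, 0.0671 in Comb against Con (Ctla4) and 0.246 in Comb against PD (Pdcd1lg2).

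**Figure D3:**
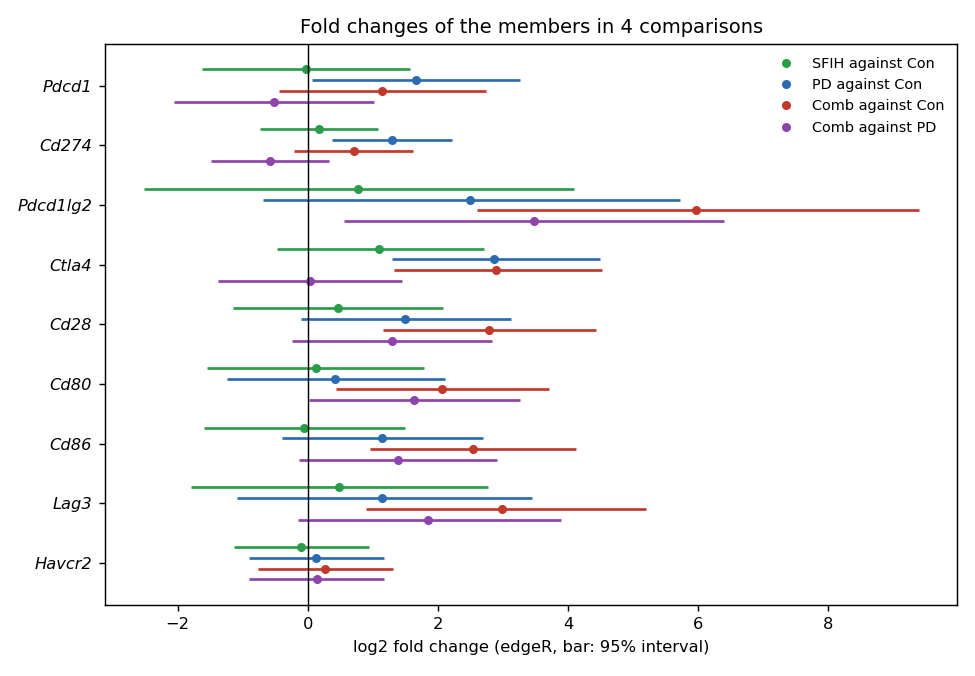
log2 fold changes from edgeR (horizontal axis, points) with 95% intervals (bars) of 9 members in 4 comparisons of 3 tumors against 3. In PD against Con the intervals of Pdcd1, Cd274 and Ctla4 lie above 0, and those of SFIH against Con include 0 for all 9 genes.

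Members were above the other group without overlap of their CPM in 5 of 9 cases for PD against Con (Cd274, Pdcd1lg2, Ctla4, Lag3 and Cd28), where 5.76% of all genes tested were. The separation of Lag3 is that of libraries with 3 counts each, and of the 5 members that passed the filter in tumors without the antibody alone, 2 were separate (Cd274 and Cd28). In Comb against Con these were 3 of 9 (Pdcd1lg2, Ctla4 and Cd80; 7.6% of all genes), in Comb against SFIH 2 of 9 (Pdcd1lg2 and Cd80; 4.65%), in Comb against PD 1 of 9 (Cd80; 4.25%) and in SFIH against Con 0 of 9 (7.55%). Of the 5 members that passed the filter in tumors without the antibody alone, 0 were separate in each of these comparisons. Without Comb replicate 3, which leaves 2 tumors in Comb and was tried after the data were seen, Cd274 joined the 3 members above Con (4 of 9; 10.4% of all genes), while the members above SFIH (2 of 9; 6.16%) and above PD (1 of 9; 6.77%) were the same. After scaling by TMM, also tried after the data were seen, Pdcd1 was added in PD against Con (6 of 9; 9.42% of all genes) and Lag3 in Comb against Con (4 of 9; 11.7%). No member lay below the other group without overlap in these comparisons. In CPM of all 12 tumors, 14.8% of all genes did in PD against Con and 22.2% in Comb against Con. The share was 14.9% in Comb against SFIH, 8.42% in Comb against PD and 8.85% in SFIH against Con. The log2 fold changes were positive for 9 of 9 members in PD against Con with a median of 1.29, while the median of all genes was 0.01 and 51.7% of genes were positive. They were 1.66 for Pdcd1, 1.29 for Cd274, 0.13 for Havcr2, 1.49 for Cd28 and 1.15 for Cd86. These are the 5 members that passed the filter in tumors without the antibody alone. In Comb against Con the log2 fold changes were positive for 9 of 9, with a median of 2.53, against 48.0% of all genes and a median of −0.03, and without Comb replicate 3 for 9 of 9 with a median of 1.60 against −0.01. For the same 5 members they were 1.14, 0.71, 0.27, 2.78 and 2.53 with all tumors. The other 4 were tested because of antibody-treated tumors in which they were high, so the counts and medians over 9 are no support for a direction. In SFIH against Con, 6 of 9 were positive with a median of 0.17, against 53.0% of all genes and a median of 0.02. The SFIH value farthest from 0 by edgeR was 1.09 for Ctla4 (standard error 0.73, 95% interval −0.48 to 2.71), and Cd274 was at 0.17 (0.41, −0.74 to 1.08). PD, SFIH and Comb were compared with the same 3 Con tumors.

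A comparison of the 6 tumors that received the antibody (PD and Comb) with the 6 that did not (Con and SFIH) used more tumors per side. With edgeR, 8 of 9 members had an unadjusted p under 0.05 (18.7% of all genes), and none passed the adjusted threshold. Of the 5 members that passed the filter in tumors without the antibody alone, these were 4 (Pdcd1, Cd274, Cd28 and Cd86). The log2 fold change was 2.33 for Ctla4 (standard error 0.50, adjusted p = 0.0973), 3.84 for Pdcd1lg2 (1.02, 0.0980), 1.91 for Cd28 (0.51, 0.0980), 1.87 for Cd86 (0.50, 0.0980), 0.91 for Cd274 (0.29, 0.138) and 1.41 for Pdcd1 (0.51, 0.166). Without Comb replicate 3 the log2 fold change fell most for Pdcd1lg2, to 2.25, and was 2.09 for Ctla4, 1.52 for Cd28, 1.34 for Cd86, 1.07 for Cd274 and 1.19 for Pdcd1. Havcr2 was the exception with all tumors, at 0.25 (standard error 0.33, 95% interval −0.49 to 0.98), and at 0.40 without Comb replicate 3. The 6 and 6 tumors overlapped for all 9 members (0.661% of all genes were higher without overlap, and 0.743% without Comb replicate 3, again with no member). The interaction, which asks whether SFIH changed a gene by a different amount with the antibody than without, had an unadjusted p under 0.05 for 0 of 9 members (2.55% of all genes). Its estimate was 1.51 for Cd80 (standard error 1.06, 95% interval −0.80 to 3.84, adjusted p = 0.894) and −0.76 for Cd274 (0.59, −2.04 to 0.53, 0.894). These estimates were 1.31 and −0.44 without Comb replicate 3.

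The calls depended on the tool and on Comb replicate 3. DESeq2 called 4 members in Comb against Con: Ctla4 (adjusted p = 0.00323), Cd28 (0.00402), Cd86 (0.00531) and Lag3 (0.0371), beside 13.3% of all genes. Of the 5 members that passed the filter of edgeR in tumors without the antibody alone, these were 2 (Cd28 and Cd86). In the antibody comparison DESeq2 called Ctla4 (adjusted p = 0.000757), Cd86 (0.00552), Cd28 (0.00824) and Cd274 (0.0403), beside 7.93% of genes. Of the same 5 members these were 3 (Cd86, Cd28 and Cd274). DESeq2 called Cd28 and Cd86 in Comb against SFIH (7.78% of genes) and no member in Comb against PD (2.68%) or PD against Con. limma voom with sample weights called 6 members each in Comb against Con (20.2% of all genes), Comb against SFIH (15%) and the antibody comparison (20.7%), and no member in the other 4. Of the same 5 members these were 3 in each (Cd274, Cd28 and Cd86). Pdcd1lg2 received no adjusted p from DESeq2 in any comparison of the 12 tumors. When Comb replicate 3 was left out, a fit added after the data were seen, DESeq2 called Cd274 (log2 fold change 1.29, adjusted p = 0.0295) and Ctla4 (2.89, 0.0358) in PD against Con, where 0.398% of all genes passed. In Comb against Con it called Ctla4 alone of the members (2.48, adjusted p = 0.0485; 4.88% of genes). In the antibody comparison it called Cd274, Ctla4, Cd86, Pdcd1lg2 and Cd28 (adjusted p from 0.00108 to 0.0351; 6.66% of genes). Ctla4 and Pdcd1lg2 carry the limit of the filter in these calls. Without Comb replicate 3 edgeR called no member in any comparison, and its adjusted p for Ctla4 and Cd274 in the antibody comparison was 0.0714 and 0.0711. Without Comb replicate 1 edgeR called 5 members in Comb against Con (Pdcd1lg2, Ctla4, Lag3, Cd28 and Cd86; adjusted p from 0.00401 to 0.0127), beside 28.5% of all genes, with the limit of the filter for the first 3. In Comb against PD it then called Pdcd1lg2, Cd28 and Cd86 (log2 fold changes 4.03, 1.80 and 1.88, adjusted p from 0.0424 to 0.0444; 15.2% of all genes) and not Cd80 (1.85, adjusted p = 0.122).

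**Figure D4:**
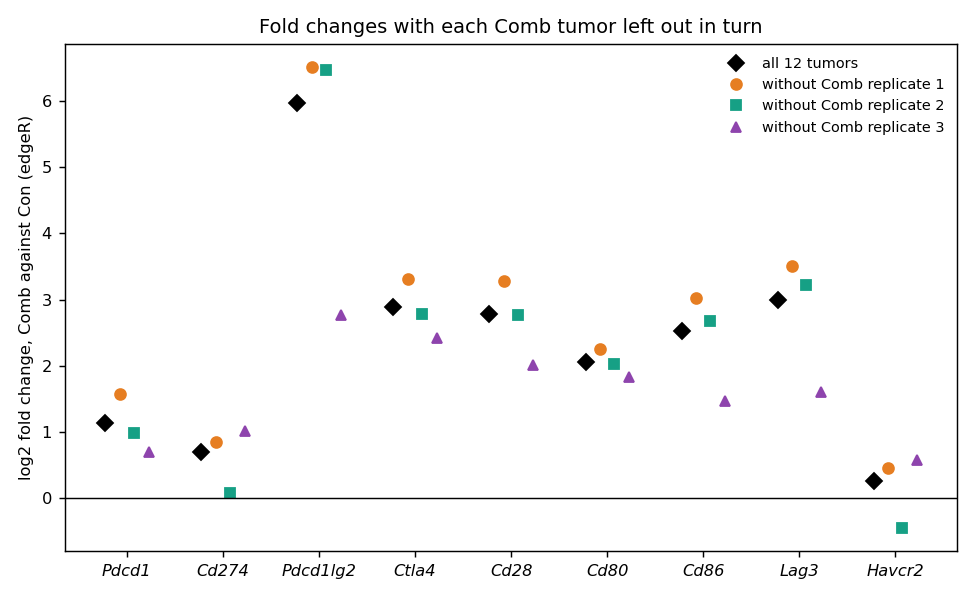
log2 fold change from Con to Comb (vertical axis, edgeR) of 9 members with all 12 tumors and with each Comb tumor left out in turn. Pdcd1lg2 moves from 5.96 to 2.77 without Comb replicate 3, and Havcr2 turns negative without Comb replicate 2.

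Because most of these genes are made by immune cells, the receptors were also expressed as a percentage of the counts of 11 T cell markers and the ligands as a percentage of the counts of 11 macrophage markers. How many of all genes separate on either measure was not computed. A gene of even CPM falls on them where the marker counts rise. The T cell markers summed to 44.7 to 69.5 CPM for Con, 54.6 to 93.9 for SFIH, 77.4 to 182 for PD and 69.5, 191 and 483 for Comb replicates 1 to 3. The median for Ctla4 was 0.930% for Con, 1.81% for SFIH, 2.93% for PD and 1.85% for Comb. All 3 PD tumors (2.23% to 4.03%) were above all Con tumors (0.861% to 1.02%) and above all Comb tumors (0.905% to 1.92%). For Pdcd1 the medians were 2.09%, 2.26%, 3.06% and 1.28% in the same order, and the Comb tumors (0.679% to 1.55%) lay below all Con and all PD tumors. Cd28 overlapped in all groups, with 1.44% to 2.88% in Con, 2.37% to 3.06% in PD and 1.99% to 3.52% in Comb. Cd28 thus lay above Con in CPM in all PD tumors and within the range of Con, or just above it, relative to the T cell markers. Havcr2 lay the other way from Ctla4, with 11.9% to 20.3% for Con tumors, 8.50% to 17.2% for SFIH, 6.14% to 8.39% for PD and 10.3%, 7.89% and 0.754% for Comb replicates 1 to 3, so that all PD and all Comb tumors were below all Con tumors. Macrophages and dendritic cells also make TIM-3, and its CPM did not differ between these groups by more than their spread. Lag3 overlapped in all groups. With the CD3 genes Cd3d, Cd3e and Cd3g alone as the T cell markers, the separations of Ctla4 and Pdcd1 and that of Havcr2 between PD and Con were also found, while Havcr2 in Comb overlapped Con (2.23% to 42.9% against 42.1% to 92.3%).

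Cd274 relative to macrophage markers was 4.31% to 7.24% in Con, 6.21% to 7.66% in PD and 4.71%, 2.81% and 0.234% in Comb replicates 1 to 3. The macrophage markers themselves summed to 602 to 1089 CPM for Con, 1055 to 1964 for PD and 1198, 3683 and 11462 for Comb. Con and PD overlapped on this measure, and Comb lay below PD. Pdcd1lg2 was above Con in all PD and all Comb tumors on this measure, at 0.122% to 0.259% and 0.116% to 0.651% against at most 0.110%. With 3 macrophage markers alone (Csf1r, Adgre1 and Cd68) PD was still above Con, but Comb overlapped it, at 0.481% to 4.05% against at most 0.504%. Cd80, which was separate in CPM, was not separate here: Comb had 0.174%, 0.072% and 0.025% against 0.051% to 0.071% in PD. For Cd86, Comb had 0.350% to 0.477% and PD 0.571% to 0.742%, against 0.328% to 0.696% in Con, so that the Comb tumors lay below the PD tumors and within the range of Con. The part of the cell numbers in these results was not tested, and macrophage markers say nothing of PD-L1 made by the carcinoma cells.

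**Figure D5:**
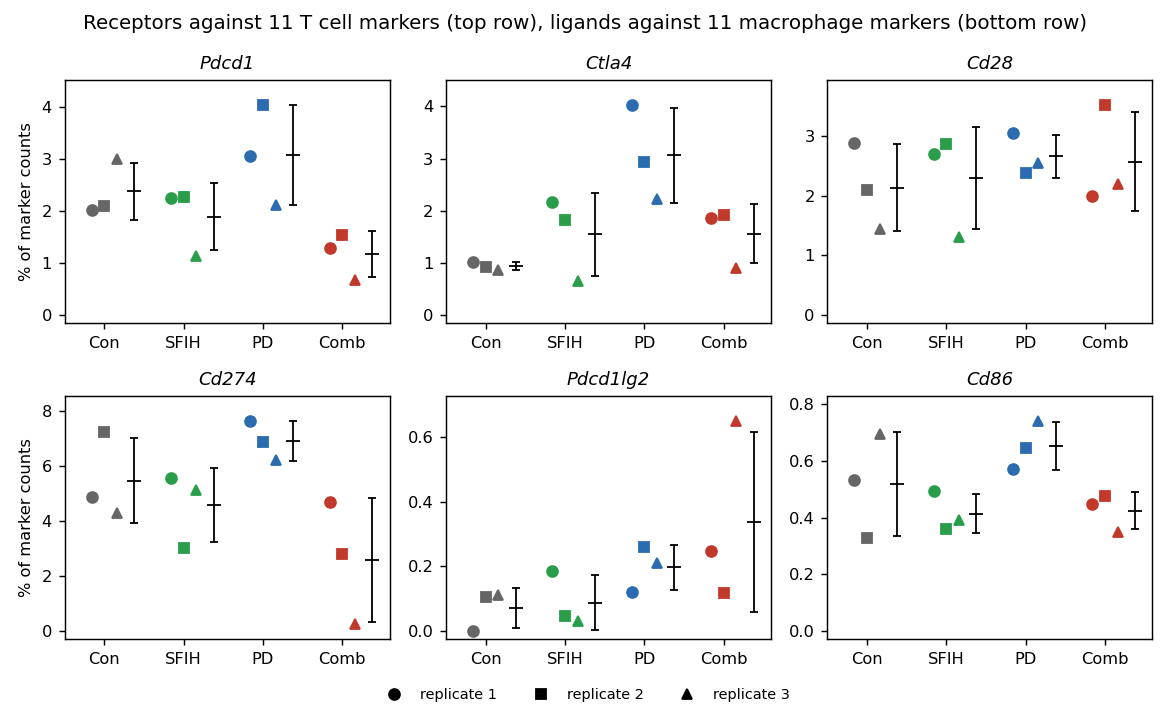
Counts of 3 receptors as a percentage of the summed counts of 11 T cell markers (upper panels) and of 3 ligands as a percentage of 11 macrophage markers (lower panels), by tumor and group, with symbols for replicates and the mean ± SD of 3 tumors. Ctla4 is highest in the PD tumors (2.23% to 4.03%), and Cd274 is lowest in Comb replicate 3 (0.234%).

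Genes around the checkpoints were examined as 4 lists written by hand, beside all genes, of which 51.7% were higher in PD than in Con and 48.0% higher in Comb than in Con. Of 26 tested partners of the checkpoints (other receptors of these families and their ligands), 18 were higher in PD than in Con and 21 were higher in Comb than in Con, with median log2 fold changes of 0.42 and 1.30 and none past the adjusted threshold of edgeR. The median from Con to Comb was 0.67 without Comb replicate 3. DESeq2 called 13 of 30 higher and 1 lower in Comb against Con, where it called 2035 of 15297 genes (13.3%), 1678 of them higher. In the same comparison it called 7 of 20 signaling genes higher, 8 of 22 activation and exhaustion genes higher, and 3 of 17 genes of the PD-L1 route higher and 1 lower. By the lowest p in the antibody comparison, the leading partners were Icos, a costimulatory receptor beside Ctla4 in the genome, and Tnfrsf4, which encodes the costimulatory receptor OX40. Their log2 fold changes there were 1.73 (standard error 0.35) and 1.83 (0.43), with adjusted p of 0.0973 and 0.0980 from edgeR and 0.000373 and 0.00192 from DESeq2. The log2 fold changes were 1.40 and 1.34 without Comb replicate 3. Icos had 4.47 to 6.30 CPM in Con, 11.1 to 16.8 in PD and 7.13, 17.4 and 27.2 in Comb, so that all 6 treated tumors were above Con.

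Of 20 genes that carry the signals of these receptors, 14 were higher in PD and 16 in Comb than in Con, with medians of 0.52 and 1.26 (the latter 0.72 without Comb replicate 3), and none passed with edgeR. Prkcq, the protein kinase C theta of the CD28 pathway, and Pik3r1, a regulatory subunit of PI 3-kinase, led this list in the antibody comparison, at 2.56 (standard error 0.72) and 0.79 (0.22), with adjusted p from edgeR of 0.0993 and 0.0994. Prkcq was at 1.45 and Pik3r1 at 0.61 without Comb replicate 3. Of 22 activation and exhaustion genes, 19 were higher in PD and 17 in Comb (medians 0.57 and 1.15, the latter 0.38 without Comb replicate 3, none past the threshold of edgeR). Entpd1, which encodes the ectoenzyme CD39, was at 1.76 (standard error 0.40, adjusted p = 0.0976) and Irf4, a transcription factor of activated lymphocytes, at 2.89 (0.80, 0.0985) in the antibody comparison by edgeR. Entpd1 and Irf4 were at 1.501 and 1.82 without Comb replicate 3. Of the tumors without the antibody, only Con replicate 1 reached the 1.01 CPM of the filter for Irf4, at 1.19 CPM. Irf4 was thus tested because of antibody-treated tumors in which it was high. The other genes of the lists were not sorted in this way.

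Of 17 genes of the route that induces PD-L1, 13 were higher in PD and 10 in Comb than in Con, with medians of 0.10 and 0.06 (the latter 0.11 without Comb replicate 3) and none past the threshold of edgeR. The interferon gamma gene Ifng and Irf1 led this list, at 2.36 (standard error 0.64, adjusted p = 0.0980) and 0.61 (0.14, 0.0973) in the antibody comparison. Irf1 had a log2 fold change of 0.58 (standard error 0.19) from Con to PD. From Con to Comb it was 0.27 (0.19), or 0.41, 0.04 and 0.34 without Comb replicate 1, 2 and 3. From PD to Comb it was −0.31 (0.19), or −0.17, −0.54 and −0.24 in the same order. Ifng was at 2.13 (standard error 0.91) from Con to PD and at 3.38 (0.93) from Con to Comb, the latter 3.01 without Comb replicate 3. In the antibody comparison Irf1 and Ifng were at 0.64 and 2.17 without Comb replicate 3. The differences between PD and Comb did not pass the threshold for either gene (edgeR adjusted p = 0.386 for Irf1 and 0.414 for Ifng).

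The genes most like Pdcd1 across the 12 tumors, by Pearson correlation of log2 CPM after TMM over the 13464 genes, were Rgs1 (r = 0.95), Cd8a (0.95) and Dnase1l3 (0.92). Those most like Cd274 were Il12b (0.92), Arid5b (0.91) and Adap2 (0.89). Without Comb replicate 3 these values were 0.94, 0.94 and 0.92 for Pdcd1 and 0.92, 0.90 and 0.88 for Cd274. They describe 12 tumors whose groups and immune cell content differ, and no test is attached to them.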

How the data were processed

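The members and gene lists were chosen with earlier results of these data known. The authors made QuantSeq 3′ mRNA-Seq libraries from total RNA of tumor tissue, read single-end over 75 bp on an Illumina NextSeq, and deposited raw read counts per gene symbol for 12 tumors. The aligner, counting tool and genome build are not given in the sources used here. Each tumor has its own library, and p-values measure the spread between these tumors. Reads carry no molecular identifiers here, so floors cover counting error only. Columns were assigned to groups by their names. CPM used the library total, and log2 levels a pseudocount of 1.

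Counts were compared in R 4.3.3 with edgeR 4.0.16 (filterByExpr, TMM, quasi-likelihood test, all 12 tumors, no replicate block, two-sided, Benjamini-Hochberg adjustment). The study lists limma and DESeq2 for its transcriptome data, describing limma for microarrays and DESeq2 for principal components of these tumors. Alternatives were DESeq2 1.42.0, limma voom with sample weights (limma 3.58.1), no TMM, no filter or a mean of at least 50 counts, the compared groups alone, a replicate block and each tumor left out, and DESeq2 and the overlap of groups without Comb replicate 3, and the overlap after TMM scaling, were added after the data were seen. Levels relative to markers used (count + 0.5) over the summed marker counts for log2 values and the plain percentage in the text, with 3 markers alone as an alternative. The fits across all genes were tested on simulated counts with known fold changes. Figures were drawn with matplotlib 3.10.9. All 10 members are named, with the 2 genes of lowest p in the antibody comparison from each list (none had passed) and the 3 genes most like Pdcd1 and Cd274.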

Additional observations from a re-analysis of the deposited data

How the results depend on the processing

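With edgeR no member and no gene passed in any comparison without the normalization by TMM, without the filter, with a mean of at least 50 counts, within the compared groups alone or with the replicate block (0 members and 0 genes). The replicate numbers do not pair the tumors by any label, and deviations of same-numbered tumors correlated by more than 0.1 in 6 of 18 pairs (−0.21 to 0.34). With the block the log2 fold change from Con to SFIH turned to 0.044 for Pdcd1 and 0.081 for Cd86.

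DESeq2 called 2, 2, 2035, 390, 1190, 1213 and 1 genes in SFIH, PD and Comb against Con, Comb against PD, Comb against SFIH, the antibody comparison and the interaction, with 4 members in Comb against Con, 2 in Comb against SFIH and 4 in the antibody comparison. limma voom with sample weights called 83 genes in PD against Con, 2719 in Comb against Con, 1074 in Comb against PD, 2019 in Comb against SFIH and 2787 in the antibody comparison, with 6 members each in Comb against Con, Comb against SFIH and the antibody comparison. It gave Comb replicate 3 a weight of 0.06 and replicate 1 a weight of 0.29. DESeq2 without Comb replicate 3 called 41, 61, 711, 15, 95 and 970 genes in the first 6 comparisons, in the same order, with 2 members in PD against Con, 1 in Comb against Con and 5 in the antibody comparison. The cause of these differences was not tested. The counts of members above, except that of DESeq2 in Comb against SFIH, include members that passed the filter only through antibody-treated tumors. With each tumor left out in turn, edgeR called 0 to 5 members and 0 to 3943 genes in Comb against Con, 0 to 3 and 0 to 2100 in Comb against PD, 0 to 5 and 0 to 3118 in Comb against SFIH, and 0 to 6 and 0 to 2370 in the antibody comparison. The highest counts were those without Comb replicate 1, and without Comb replicate 3 there were 5 genes in Comb against Con and 2 in the antibody comparison, with no member.

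Of 63 fold changes of members, 42 kept their sign in all alternatives run for them. With limma voom the sign turned in SFIH against Con for Cd274 (−0.15) and Cd80 (−0.61), in PD against Con for Havcr2 (−0.039), in Comb against PD for Pdcd1 (0.20) and Cd274 (0.23), and in the interaction for Pdcd1 (0.43) and Cd274 (0.38). In Comb against PD it turned for Ctla4 without TMM (−0.19), without the filter (−0.019) and in DESeq2 without Comb replicate 3 (−0.41), and for Havcr2 without TMM (−0.0050). The interaction of Pdcd1lg2 was −0.47 in DESeq2 without Comb replicate 3. With each tumor left out in turn, the values in SFIH against Con ranged from −0.46 to 0.35 for Pdcd1, −0.046 to 0.42 for Cd274, −0.52 to 1.68 for Pdcd1lg2, −0.35 to 0.14 for Havcr2, −0.53 to 0.57 for Cd80 and −0.42 to 0.36 for Cd86. In PD against Con they ranged from −0.16 to 0.37 for Havcr2 and −0.048 to 0.88 for Cd80, in Comb against Con from −0.44 to 0.58 for Havcr2, and in Comb against PD from −0.95 to 0.37 for Pdcd1, −0.43 to 0.50 for Ctla4 and −0.575 to 0.455 for Havcr2. In Comb against SFIH they ranged from −0.090 to 0.85 for Cd274 and −0.34 to 0.68 for Havcr2, in the antibody comparison from −0.11 to 0.40 for Havcr2, and in the interaction from −0.93 to 0.39 for Pdcd1, −0.49 to 3.997 for Pdcd1lg2, −0.0095 to 2.17 for Lag3 and −0.48 to 0.55 for Havcr2. Lag3 and Tigit had a median of 3 and 0 counts per tumor, at or under the floor of 3 counts, and what kept them low was not tested.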

Other observations

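Among the checkpoint partners, some ligands and receptors were lower in Comb than in Con. They were chosen after their values were seen and are given with no test. Of all genes tested, 22.2% were lower in Comb than in Con without overlap of their CPM, and 14.8% were lower in PD than in Con. Pvr, which encodes a ligand of TIGIT and CD226, had 81.6 to 112 CPM for Con, 58.2 to 87.7 for SFIH, 62.9 to 70.0 for PD and 54.2, 37.6 and 7.19 for Comb replicates 1 to 3. Fgl1, which encodes a ligand of LAG-3, had 3.12 to 5.99 CPM in Con, 1.57 to 2.16 in PD and 0.711 to 2.67 in Comb. The costimulatory receptor gene Tnfrsf9 had 52.7 to 72.3 CPM in Con, 21.9, 75.2 and 34.0 in PD and 24.7, 35.1 and 14.8 in Comb. The inhibitory receptor VISTA, listed under the symbol 4632428N05Rik, lay the other way, with 13.3 to 28.2 CPM in Con, 24.3 to 54.0 in PD and 32.4, 80.3 and 234 in Comb.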
